A study of Mus musculus with 18 samples.

Results

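Ift140 knockout IMCD3 cells kept under fluid flow were compared with Ift140 knockout IMCD3 cells kept in static culture. The comparison holds 6 of the 18 libraries of the study, all those labelled with the Ift140 knockout genotype: 3 labelled fluid flow and 3 labelled static. IMCD3 cells are an immortal epithelial line of mouse kidney, derived from the inner-medullary collecting duct, with the strain background given as Tg(SV40E)bri/7 and the passage as 10 to 15. Flow was a shear stress of about 0.7 dyne/cm2 applied for 3 h in microslide chambers, and static cells were kept in the same chambers for the same time without it. The remaining 12 libraries are wild-type cells and Dync2h1 knockout cells under the same conditions, with 3 libraries in each group. They enter the estimate of the spread behind each SE and p-value. The wild-type libraries are also used below where a difference in response was tested. Both arms carry the Ift140 knockout and shared medium, serum and antibiotic (ciproxin), and the labels tell them apart by the culture condition alone.

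The labels do not say how the Ift140 allele was made or whether the cells are 1 clone or several. Nor do they say whether the 3 libraries of a group came from separate cultures, so p-values measure the spread between libraries. That spread was estimated for each gene within the 6 groups of all 18 libraries, not from the Ift140 knockout libraries alone. RNA was sequenced from total RNA, and the level of each gene is a TPM, a transcript abundance that is corrected for transcript length and sums to the same total in each library. Levels below are TPM after a scaling factor per library, and the read depth behind them is unknown. A difference is the mean under flow minus the mean in static culture on the scale log2(TPM + 1), with its standard error (SE), from a limma fit across 15291 genes that reached at least 1 TPM in 3 or more of the 6 libraries. The pseudocount makes this scale understate changes of low genes. The threshold was an adjusted p (Benjamini-Hochberg) under 0.05, a gene beyond it is said to have passed, and "rose" and "fell" are used only of genes that passed.

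Ift140 is a subunit of IFT-A, the part of the intraflagellar transport trains that carries membrane proteins into the primary cilium and returns trains from its tip to its base. The return is driven by dynein-2, whose heavy chain is Dync2h1. The primary cilium of a tubule cell stands in the urine stream and is known as a sensor of fluid movement and as the site where Hedgehog signals are processed. The series set ciliated against non-ciliated cells under flow, so the knockout comparison asks which transcripts changed with flow in cells labelled as lacking a working IFT-A subunit.

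Ift140 itself (chr17:25016085-25099495 in GRCm38) was still measured in the knockout cells. It had 7.65, 8.53 and 15.4 TPM under flow, against 6.26, 6.44 and 7.45 TPM in static culture. All flow libraries were above all static libraries, the third flow library by the most, but the difference did not pass (log2 difference 0.52, SE 0.19, adjusted p = 0.0734) and was 0.24 without the third flow library (adjusted p = 0.296). Leaving out the first flow library gave 0.70 with an adjusted p of 0.0256, the only alternative setting in which it passed. Wild-type cells averaged 16.7 ± 1.75 TPM under flow and 18.2 ± 1.55 TPM in static culture (SD, n = 3 each), so 5 of the 6 knockout libraries lay well under the wild-type means and the third flow library near them. TPM per gene does not show whether the remaining transcripts carry the deleted part, so this level checks the label only in part. Dync2h1, which the genotype label leaves intact, had 22.9, 28.5 and 42.3 TPM under flow, against 31.2, 33.3 and 31 TPM in static culture, with overlapping groups (log2 difference -0.07, SE 0.21, adjusted p = 0.857).

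Markers of collecting duct cells were low in both arms. Of 12 principal cell markers 2 reached the filter, Tfcp2l1 and Scnn1g, and the water channel Aqp2, which defines the principal cell, had 0.0399, 0.0312 and 0.0447 TPM under flow and 0, 0.0196 and 0.0443 TPM in static culture. None of 8 intercalated cell markers reached it, and their summed level was 0 to 0.811 TPM under flow and 0.301 to 0.346 TPM in static culture. Of markers of other cells, 3 of 8 for the proximal tubule, 1 of 6 for the thick limb and distal tubule, 0 of 7 for endothelium, 2 of 7 for leukocytes and 1 of 7 for fibroblasts reached the filter. The proximal tubule markers summed to 70.4 to 120.5 TPM under flow and 81.3 to 89.9 TPM in static culture, almost all of it Lrp2, while Slc34a1, Slc22a6 and Hnf4a were listed at 0 in all 6 libraries. Summed levels of the leukocyte markers were 12.8 to 22.4 TPM under flow and 14.3 to 16.6 TPM in static culture, with Cd3e listed at 0 throughout. The passing markers were Scnn1g, Cubn and Col1a1. Cubn, an endocytic receptor of the proximal tubule, had 5.6, 3.9 and 6.0 TPM under flow, against 2.28, 3.52 and 4.04 TPM in static culture (log2 difference 0.53, SE 0.16, adjusted p = 0.026), with overlapping groups, and the call was lost without static 1, flow 1 or flow 3 (adjusted p 0.0787 to 0.128). Col1a1, a fibroblast collagen, had 3.2, 0.957 and 4.32 TPM under flow, against 0.774, 1.01 and 0.434 TPM in static culture (log2 difference 1.03, SE 0.31, adjusted p = 0.0279), also overlapping, and the call was lost without static 1 or static 3 (adjusted p 0.0614 to 0.0956), while without flow 3 it fell under the filter.

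The third flow library stood apart from its group. Its log2 values deviated from the group mean with an SD of 0.368, against 0.215 to 0.302 in the other 5 libraries, and it correlated with its own group at 0.956 and 0.962. Its scaling factor was 1.117, next to 1.129 in the third static library and 0.961 to 1.022 in the remaining 4. Small nuclear RNA took 1.32% of its TPM and 1.54% in the third static library, against 2.66% to 3.72% in the other 4. Within protein-coding genes its deviation followed transcript length: the median was -0.134 in the shortest quartile (63 to 1965 bases) and 0.189 in the longest (4622 to 123179 bases). Deviations from a group mean cancel out for each gene, so the first and second flow libraries together had to run the other way. Their medians went from 0.052 and 0.086 to -0.077 and -0.116. The median flow minus static difference therefore ran with length, from -0.05 in the shortest quartile to 0.082 in the longest, and from 0.021 to -0.026 without the third flow library. In the longest quartile 381 genes rose and 243 fell, against 262 and 339 without that library, so a count over long genes changed its balance with it.

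Single genes in that library were far from both other flow libraries. Nmi, an interferon-inducible partner of STAT factors, had 11.6, 14.8 and 352 TPM under flow and 13.3, 15.1 and 9.0 TPM in static culture, so that 1 library of 6 was high. Arid1a, a subunit of the BAF chromatin remodelling complex, had 12.1, 10.1 and 53.4 TPM under flow and 12.7, 18 and 12 TPM in static culture. Cped1 had 0.249, 0.458 and 48.7 TPM under flow and 1.99, 0.529 and 0.912 TPM in static culture. Slc25a22, a mitochondrial glutamate carrier, had 3.55, 5.24 and 23.6 TPM under flow and 10.2, 4.49 and 6.86 TPM in static culture. Fnbp1, a membrane-bending protein, had 4.22, 3.14 and 20.3 TPM under flow and 3.2, 9.01 and 2.25 TPM in static culture. None of these 5 passed. On the low side were small RNAs, among them Rnu11, the U11 RNA of the minor spliceosome, with 20.9, 25.7 and 5.86 TPM under flow and 48.8, 40.3 and 11.4 TPM in static culture. Another, Snora70, a guide for RNA modification, had 42.2, 59.8 and 13.6 TPM under flow and 60.5, 52 and 21.6 TPM in static culture. For these small RNAs the third static library was low too.

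**Figure D1:**
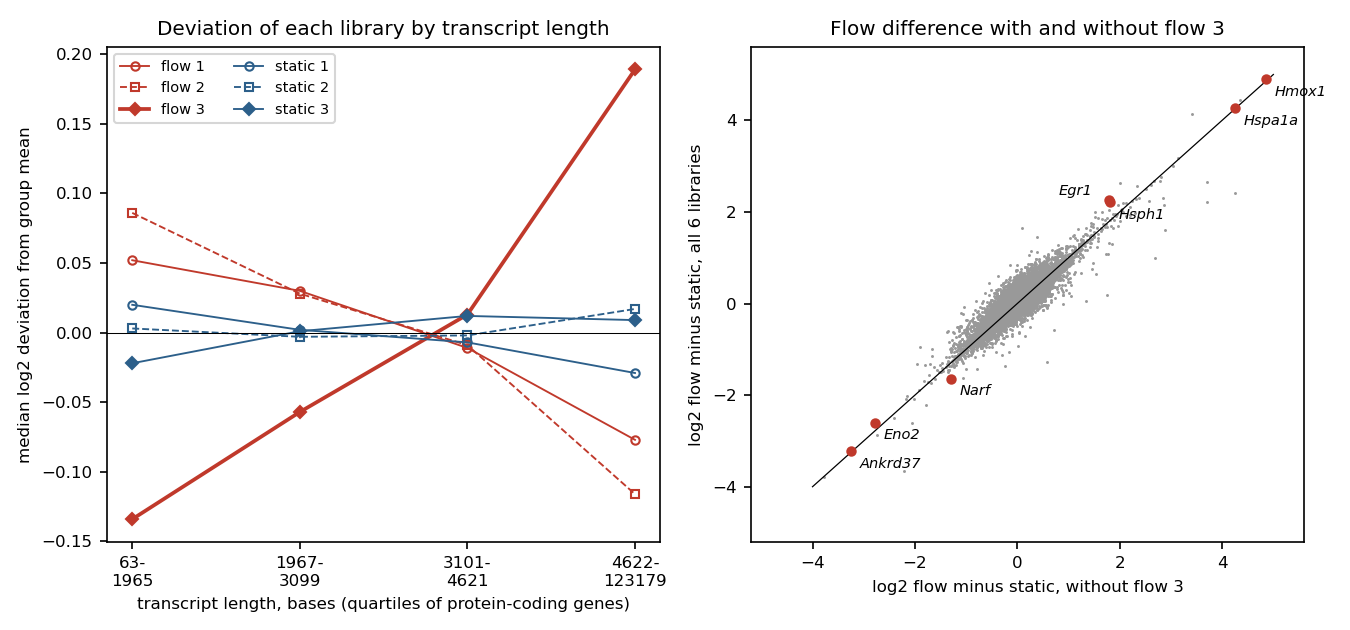
The left panel plots the median log2 deviation from the group mean in each of the 6 libraries (y axis) for protein-coding genes in 4 quartiles of transcript length (x axis), with flow libraries in red and static libraries in blue. The third flow library runs from -0.134 in the shortest to 0.189 in the longest quartile. The right panel plots, for each gene tested both ways, the log2 difference between flow and static without the third flow library against the difference with it.

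Because of this, results are given with and without the third flow library. With all 6 libraries, 2951 of 15291 genes passed (19.3%): 1553 rose (10.2%) and 1398 fell (9.14%). Without it, 2786 of 14930 genes passed (18.7%), with 1481 higher (9.92%) and 1305 lower (8.74%). With only these 6 libraries in the fit, so that no other group lends its spread, 684 passed (390 higher and 294 lower). With and without the third flow library 2216 genes passed with the same sign, while 735 passed only with the library, 38 of them because they were not tested without it, and 570 passed only without it. The sign turned in 5 genes that passed in either analysis, Card10, Dag1, Gbf1, Kmt2e and Mical3. All 5 were lower in the first and second flow libraries, passed as lower without the third, and stood at 56.8 to 85.2 TPM in it. The median difference over all genes tested was 0.006 (0.016 without it), so members of a list are read against a centre close to 0. At least 2-fold on the log2(TPM + 1) scale were 322 of the passing genes, 197 higher and 125 lower. Groups did not overlap in 2819 of the 2951. Over all 15291 genes tested they did not overlap in 2202 with flow higher (14.4%) and 2116 with flow lower (13.8%). A lack of overlap between 3 and 3 libraries is therefore common, and where it is given below it describes the libraries only.

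The 15 largest rises and 15 largest falls, chosen for passing with and without the third flow library, for non-overlapping groups and for a mean of at least 5 TPM, with predicted gene names (Gm and a number, or Rik) left out, spanned 2.16 to 4.90 upward and 1.44 to 3.78 downward in size. The rises were Hmox1, Hspa1a, Hspa1b, Chac1, Angptl4, Dusp5, Osgin1, Ptgs2, Sgk1, Egr1, Srxn1, Hsph1, Plk3, Atf3 and Fosl1. The falls were mt-Co2, Ankrd37, Eno2, Rasl11a, Smtnl2, Ccng2, H1f0, Lpin1, Narf, Dhrs3, Tmco6, Mecom, Efna1, Ak4 and Cdkn2d. All 30 also passed when only these 6 libraries were fitted. In wild-type cells all 15 rises and 14 of the 15 falls passed with the same sign, mt-Co2 being the exception. mt-Co2, a mitochondrially encoded subunit of cytochrome c oxidase, was listed at 0 in all flow libraries and at 8.07, 13.0 and 22.1 TPM as deposited in static libraries, but it was listed at 0 in 13 of the 18 libraries of the study, so no fold is given for it. Its neighbour mt-Co3, another subunit, was the other way round with 15.0, 21.3 and 94.8 TPM under flow, against 0.03, 4.54 and 0.06 TPM in static culture as deposited. The gene mt-Atp6 was at 0 in all 6. Of 14 mitochondrially encoded genes tested mt-Co2 alone passed, so mt-Co3 did not pass in spite of its non-overlapping groups.

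**Figure D2:**
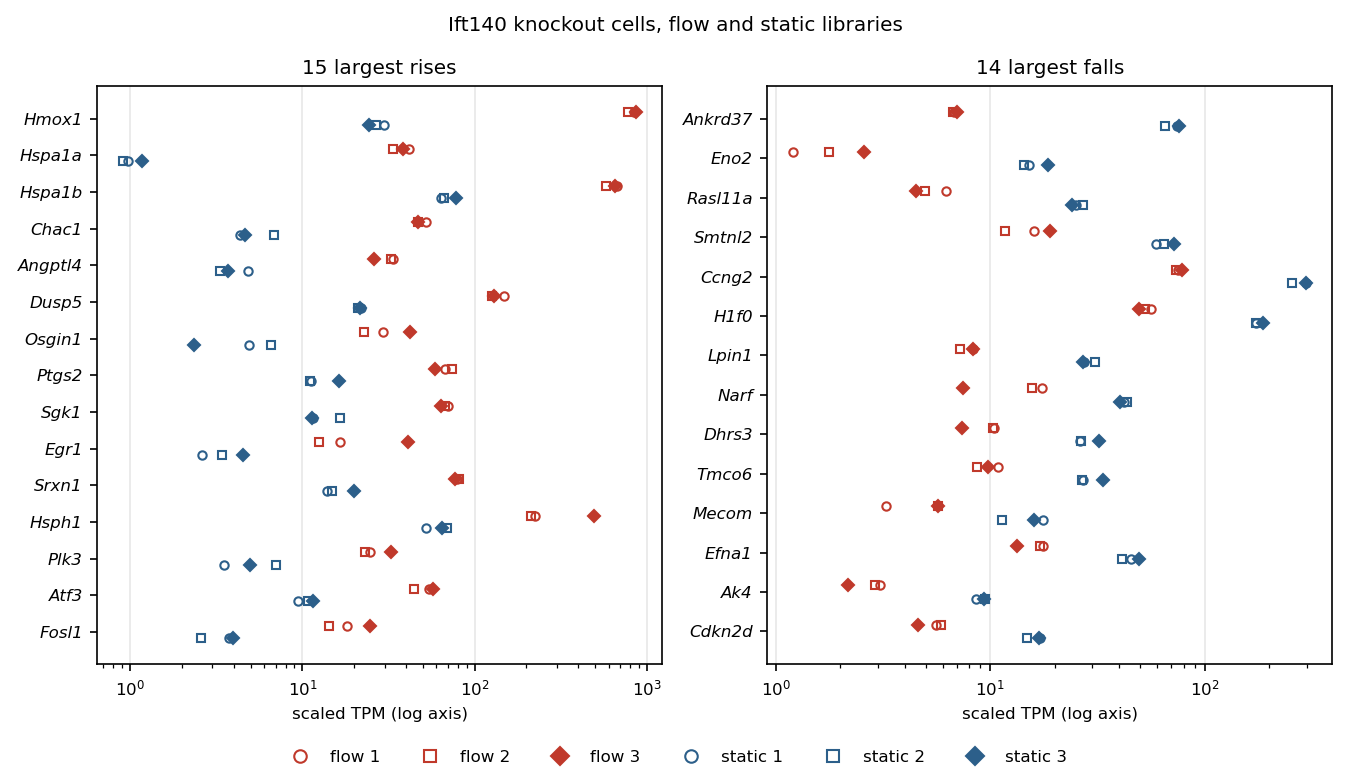
Scaled TPM (log axis) of the 15 largest rises and 14 of the 15 largest falls in each of the 6 Ift140 knockout libraries, flow in red and static in blue, with circles, squares and filled diamonds for replicates 1, 2 and 3. mt-Co2 is left out because a log axis cannot show its values of 0. No gene shown has a flow value within its static range, which the choice of genes required. Hsph1 and Egr1 have their flow 3 library well above the other flow libraries.

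Among lists of genes, 833 distinct members were tested and 301 passed (36.1%), 178 higher and 123 lower, where 19.3% of all genes tested passed. The lists were chosen with earlier results of these data known, so nothing is read from this share. Every count of list members below stands beside the shares over all genes tested, 10.2% higher and 9.14% lower. Without the third flow library these shares were 9.92% and 8.74%.

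**Figure D3:**
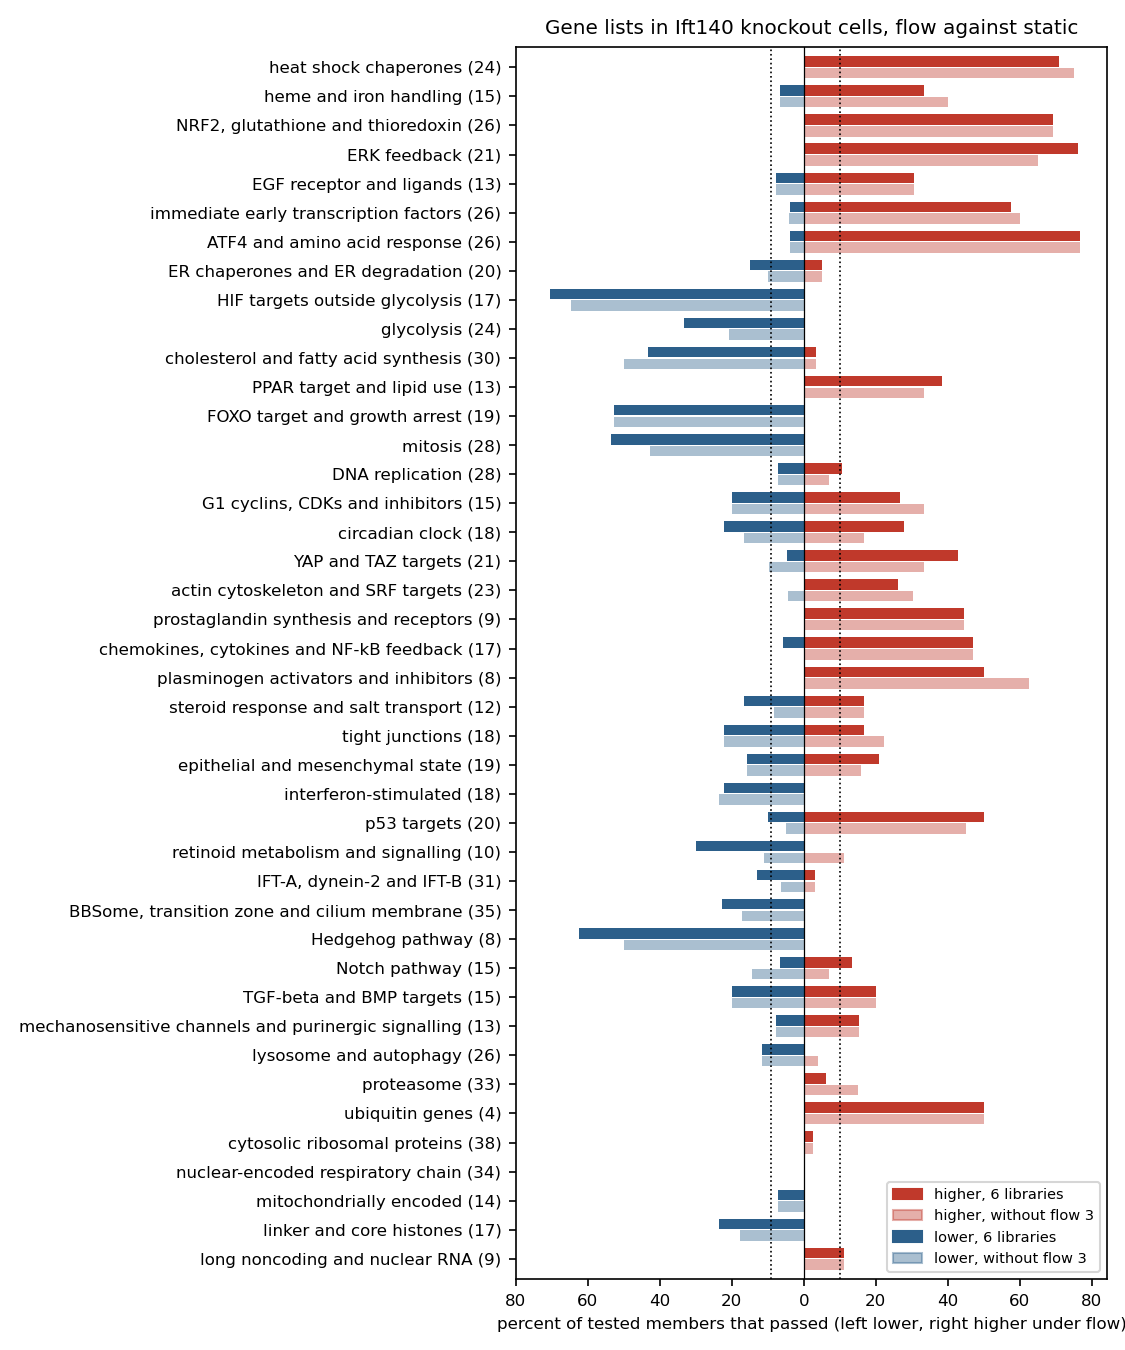
Percentage of tested members of each gene list that passed as lower (left) or higher (right) under flow, dark bars for all 6 libraries and pale bars without the third flow library. Dotted lines mark the background over all genes tested, 10.2% higher and 9.14% lower. The lists for heat shock, NRF2, ERK feedback and ATF4 lie far to the right, and those for HIF targets, Hedgehog, mitosis and FOXO far to the left.

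Heme breakdown and iron handling gave the largest rise of all. Hmox1 (chr8:75093621-75100589), heme oxygenase 1, which splits heme into biliverdin, iron and carbon monoxide, had 841, 779 and 869 TPM under flow, against 29.6, 26.7 and 24.4 TPM in static culture. Every flow library was above every static library, and the difference was 4.9 (SE 0.10, adjusted p = 3.57e-14), or 4.87 without the third flow library. Fth1, the heavy chain of the iron store ferritin, had 179, 181 and 269 TPM under flow, against 76.8, 75.7 and 68.1 TPM in static culture (log2 difference 1.47, SE 0.13, adjusted p = 8.18e-07), with the third flow library highest and no overlap. Slc48a1, a heme transporter of endosomes and lysosomes, had 44.6, 37.4 and 48.6 TPM under flow, against 17.4, 14.9 and 19.2 TPM in static culture (log2 difference 1.29, SE 0.13, adjusted p = 6.34e-06). Slc40a1, the iron exporter ferroportin, had 66.2, 86.7 and 92.5 TPM under flow, against 45, 41.5 and 47.3 TPM in static culture (log2 difference 0.85, SE 0.12, adjusted p = 0.00016). The groups did not overlap in either. The transferrin receptor Tfrc, by which cells take up iron, had 222, 239 and 224 TPM under flow, against 189.9, 183 and 194 TPM in static culture and did not pass (log2 difference 0.27, SE 0.12, adjusted p = 0.118), except with the replicate block (adjusted p = 0.0209). Of 15 heme and iron genes tested, 5 rose and 1 fell (6 and 1 without the third flow library), where 10.2% of all genes rose and 9.14% fell, with a median of 0.27. The 1 that fell was Nfs1, which supplies sulfur for iron-sulfur clusters (log2 difference -0.33, SE 0.08, adjusted p = 0.00925). Of these 6, 4 passed with only the 6 libraries fitted.

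NRF2 (Nfe2l2) is a transcription factor that Keap1 holds back and that drives glutathione and thioredoxin genes in oxidative or electrophilic stress. Of 26 genes of this list 18 rose, where 10.2% of all genes rose, and 8 did not pass. The count was the same without the third flow library, and the median was 0.58. Txnrd1, thioredoxin reductase 1, had 438, 503 and 485 TPM under flow, against 108, 121 and 109 TPM in static culture, with log2 difference 2.07, SE 0.08, adjusted p = 1.67e-10. Srxn1, which repairs oxidised peroxiredoxins, had 79.1, 80.7 and 77.4 TPM under flow, against 14, 14.9 and 19.8 TPM in static culture, with log2 difference 2.23, SE 0.10, adjusted p = 3.76e-10. In both genes the flow libraries were close together and well above the static ones. Both subunits of the enzyme that limits glutathione synthesis rose: Gclc had 282, 295 and 262 TPM under flow, against 84.3, 82.2 and 67.9 TPM in static culture (1.83, adjusted p = 1.23e-08). Gclm had 188, 187 and 236 TPM under flow, against 54, 63.8 and 48.8 TPM in static culture (1.86, adjusted p = 1.24e-08). Osgin1, an oxidative stress gene, had 29.2, 22.8 and 42 TPM under flow, against 4.88, 6.56 and 2.36 TPM in static culture (log2 difference 2.57, SE 0.29, adjusted p = 1.43e-05), its flow 3 library being the highest. Nfe2l2 itself had 52.2, 51.1 and 54.1 TPM under flow, against 24.2, 19.6 and 22 TPM in static culture (log2 difference 1.22, SE 0.08, adjusted p = 7.74e-08), without overlap, while the mRNA of its inhibitor Keap1 had 39.4, 35.3 and 34.6 TPM under flow, against 39.8, 37.2 and 42.5 TPM in static culture (log2 difference -0.13, SE 0.10, adjusted p = 0.446). Bach1, a repressor of Hmox1, rose with 44.4, 50.7 and 51.9 TPM under flow, against 28.6, 33.5 and 37.7 TPM in static culture (log2 difference 0.55, SE 0.10, adjusted p = 0.00119). Nqo1, a quinone reductase often used as an NRF2 readout, was low, with 3.45, 4.33 and 2.24 TPM under flow, against 0.356, 0.705 and 1.9 TPM in static culture, and its lowest flow library was only just above its highest static one (log2 difference 1.17, SE 0.23, adjusted p = 0.0024). A fit of the 6 libraries alone kept 10 of the 18. In the 300 bases from 250 before to 50 after a RefSeq start, the letters TGACNNNGC, part of the antioxidant response element, were found on either strand in 9 of 21 tested members with a window, and in 8 of the 14 that rose with one, where 14% of 27025 genes have a match in any of their windows. The list was drawn up around NRF2, so a share above that of all genes is no test.

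Heat shock chaperones rose in most of their tested members. They fold or refold proteins, and their genes are driven by HSF1 when unfolded protein accumulates. Hspa1a (chr17:34969190-34972156) and Hspa1b (chr17:34956436-34959238), neighbouring genes for near-identical inducible HSP70 proteins, come after Hmox1 among the 15 largest rises listed above. Hspa1b had 669, 577 and 649.97 TPM under flow, against 64.1, 66.8 and 77.8 TPM in static culture, and Hspa1a had 41.8, 33.4 and 38.6 TPM under flow, against 0.967, 0.91 and 1.17 TPM in static culture. The flow libraries of each were close together and far above the static ones, with a log2 difference of 3.17 (SE 0.09, adjusted p = 3.41e-12) for Hspa1b and 4.27 (SE 0.13, adjusted p = 4.84e-12) for Hspa1a, and 3.14 and 4.25 without the third flow library. Of the 50-base stretches of the Hspa1a transcripts 58.8% are also in those of Hspa1b (62.3% the other way), so the split of reads between these genes is uncertain. The predicted gene Gm20481, whose annotated span lies within that of Hspa1a on the other strand, also rose, by 4.45, more than either. The 250 bases before each start, from RefSeq on GRCm38.p6, show how alike the promoters are: they differ at 3 of 250 bases. Hspa1a lies at chr17:34972157-34972406, minus strand, and Hspa1b at chr17:34959239-34959488, minus strand. Capitals mark GAANNTTC, adjoining units of the sequence that HSF1 binds, starting 104 bases before the start in both.
Hspa1a: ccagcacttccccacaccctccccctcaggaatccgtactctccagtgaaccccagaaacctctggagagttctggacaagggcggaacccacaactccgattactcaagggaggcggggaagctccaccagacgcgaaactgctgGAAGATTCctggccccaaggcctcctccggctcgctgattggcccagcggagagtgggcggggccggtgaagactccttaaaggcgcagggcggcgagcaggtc
Hspa1b: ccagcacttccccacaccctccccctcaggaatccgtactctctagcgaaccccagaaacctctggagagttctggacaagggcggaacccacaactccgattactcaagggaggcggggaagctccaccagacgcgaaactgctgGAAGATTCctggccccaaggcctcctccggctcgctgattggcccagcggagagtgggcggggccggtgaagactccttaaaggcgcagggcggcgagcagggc

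Of the 24 heat shock genes tested 17 rose and 7 did not pass (18 and 6 without the third flow library), with a median of 0.65. Dnajb1, a co-chaperone of HSP70, had 194, 160.4 and 182 TPM under flow, against 67.3, 71.8 and 75.9 TPM in static culture (log2 difference 1.3, SE 0.08, adjusted p = 1.43e-08), with no overlap. Hsp90aa1, the inducible HSP90, had 1610.1, 1702 and 1462 TPM under flow, against 861, 825 and 954 TPM in static culture (log2 difference 0.85, SE 0.07, adjusted p = 5.55e-07). Hsph1, a nucleotide exchange factor of HSP70, had 223, 213 and 495 TPM under flow, against 52, 68.8 and 64.4 TPM in static culture, so that the third flow library was the highest by far. Its difference of 2.21 (SE 0.26, adjusted p = 2.25e-05) was 1.81 without that library. Hsf1, the factor itself, had 37.6, 35 and 54.4 TPM under flow, against 33.7, 35.3 and 35.5 TPM in static culture and did not pass (log2 difference 0.25, SE 0.12, adjusted p = 0.162), except without flow 2 (adjusted p = 0.0344). Hspa4l, an HSP110 relative, passed at 0.32, but the call was lost without static 2, static 3, flow 1 or flow 3 (adjusted p 0.0594 to 0.103), while the co-chaperones Ahsa1 and Stip1 passed only without the third flow library. In the fit of the 6 libraries alone 10 of the 17 passed. GAANNTTC or TTCNNGAA was found on either strand in the 300-base window of 12 of 19 tested members with a window and of 11 of the 14 that rose, against 17% of all genes with a window. The longer heat shock element, with a further unit adjoining, was found in 4 of the 19 and in 4 of the 14 that rose. Of all genes with a window 0.662% had it. It was absent from the windows of Hspa1a, Hspa1b and Dnajb1. These matches, and those given for the other lists, describe the windows and are not evidence of binding. Each of these lists was drawn up around its factor, so a share above that of all genes is no test.

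ATF4 is the transcription factor of the integrated stress response, made when translation is slowed by amino acid shortage, heme shortage or unfolded protein in the ER, and it drives amino acid uptake and synthesis. Of 26 genes in this list 20 rose and 1 fell, with a median of 0.69, and the same counts came without the third flow library. Chac1 (chr2:119351229-119354381), which degrades glutathione, had 52.4, 47.1 and 47.2 TPM under flow, against 4.34, 6.88 and 4.62 TPM in static culture. The flow libraries lay within a narrow range above all static ones (log2 difference 3.01, SE 0.14, adjusted p = 7.08e-10). Its upstream 250 bases, from RefSeq on GRCm38.p6 (chr2:119350992-119351241, plus strand), are printed with TTGCATCA in capitals, the reverse complement of TGATGNAA, the C/EBP-ATF response element through which ATF4 acts, 193 bases before the start.
Chac1: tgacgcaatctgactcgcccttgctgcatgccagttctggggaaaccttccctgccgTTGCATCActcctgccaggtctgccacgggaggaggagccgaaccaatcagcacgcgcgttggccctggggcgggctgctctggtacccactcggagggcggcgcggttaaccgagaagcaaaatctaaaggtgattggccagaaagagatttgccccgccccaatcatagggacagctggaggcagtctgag
The letters TGATGNAA were found on either strand in the 300-base window of 7 of 23 tested members with a window and of 6 of the 18 that rose, against 4.51% of all genes. Atf4 itself had 415, 399 and 354 TPM under flow, against 169, 165 and 173 TPM in static culture (log2 difference 1.2, SE 0.07, adjusted p = 4.44e-09). Trib3, which inhibits ATF4 and AKT, had 36.6, 31.7 and 29.4 TPM under flow, against 9.81, 10.5 and 10.5 TPM in static culture (log2 difference 1.57, SE 0.12, adjusted p = 2.01e-07). Cebpb, an ATF4 partner, had 106, 107 and 93.1 TPM under flow, against 40.3, 47.4 and 39 TPM in static culture (log2 difference 1.26, SE 0.09, adjusted p = 6.83e-08). None of these groups overlapped. Amino acid genes rose less: Asns, asparagine synthetase, had 132, 133 and 131 TPM under flow, against 85.4, 84.3 and 72 TPM in static culture (log2 difference 0.71, SE 0.07, adjusted p = 4.36e-06). Slc3a2, the shared chain of several amino acid carriers, had 133, 135 and 154 TPM under flow, against 73.5, 62.6 and 65.4 TPM in static culture (log2 difference 1.06, SE 0.11, adjusted p = 6.83e-06). The member that fell was Vldlr, a lipoprotein receptor (log2 difference -0.35, SE 0.11, adjusted p = 0.0354), but the call was lost without static 1, static 2, static 3 or flow 1 (adjusted p 0.0663 to 0.15). In the fit of only the 6 libraries 16 of the 21 passed.

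ER chaperones did not follow. They are induced through ATF6 and XBP1 when unfolded protein fills the ER, and of 20 tested 1 rose and 3 fell (1 and 2 without the third flow library), which is close to the background of 10.2% and 9.14%. The median was -0.10. Hspa5, the central ER chaperone BiP, had 1762, 1731 and 1382 TPM under flow, against 1762, 1642 and 2049.8 TPM in static culture and did not pass (log2 difference -0.16, SE 0.10, adjusted p = 0.293), and neither did Xbp1 (log2 difference 0.04, SE 0.08, adjusted p = 0.782). The member that rose was Herpud1, which serves ER-associated degradation and is shared with ATF4, with 119, 132 and 99.8 TPM under flow, against 45.2, 45.2 and 48.4 TPM in static culture (log2 difference 1.31, SE 0.09, adjusted p = 9.93e-08) and no overlap. Sdf2l1 fell, with 61.8, 58.7 and 48.8 TPM under flow, against 78, 84.1 and 102 TPM in static culture (log2 difference -0.63, SE 0.10, adjusted p = 0.000467). Pdia6, a disulfide isomerase, and Creld2 fell with all 6 libraries (-0.39 and -0.31), but for Pdia6 the call was lost without static 1, static 2, static 3 or flow 3 (adjusted p 0.0546 to 0.132), and for Creld2 the call was lost without static 1, static 3, flow 1 or flow 3 (adjusted p 0.0547 to 0.091).

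ERK, the kinase at the end of the RAS pathway, induces its own brakes, the DUSP phosphatases and the Sprouty and Spred proteins, so their mRNAs are used as a readout of ERK. Of 21 tested 16 rose and 5 did not pass (13 of 20 rose without the third flow library), with a median of 0.62. Dusp5, a nuclear phosphatase for ERK, had 147, 127 and 129.9 TPM under flow, against 21.8, 20.9 and 21.5 TPM in static culture (log2 difference 2.59, SE 0.11, adjusted p = 2.92e-10). Dusp6, its cytoplasmic counterpart, had 228, 223 and 232 TPM under flow, against 61.4, 58.9 and 70.6 TPM in static culture (log2 difference 1.83, SE 0.09, adjusted p = 1.43e-09). Dusp4 had 37.5, 32.4 and 36.9 TPM under flow, against 8.39, 9.56 and 9.0 TPM in static culture (log2 difference 1.87, SE 0.09, adjusted p = 6.86e-10). In all 3 phosphatases the flow libraries were tight and far above the static libraries. Epha2, a receptor tyrosine kinase induced by ERK, had 319, 309 and 322 TPM under flow, against 97.1, 98 and 105 TPM in static culture (log2 difference 1.65, SE 0.09, adjusted p = 3.49e-09). Spry4 had 3.2, 2.05 and 6.01 TPM under flow, against 0.703, 0.127 and 0.806 TPM in static culture (log2 difference 1.57, SE 0.27, adjusted p = 0.000692) and fell under the filter without the third flow library, and Dusp8 and Spred2 no longer passed without it. For Dusp8 the call was lost without static 1, static 2 or flow 3 (adjusted p 0.083 to 0.102), and for Spred2 the call was lost without static 1, static 3 or flow 3 (adjusted p 0.0701 to 0.124). Of the 16, 9 passed when the 6 libraries were fitted alone.

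Ligands of the EGF receptor, a main source of ERK activity in epithelia, were measured with it. Areg, amphiregulin, had 7.09, 10.2 and 8.53 TPM under flow, against 0.112, 0.47 and 1.02 TPM in static culture, so it stood at 1.02 TPM or less in static culture (log2 difference 2.68, SE 0.21, adjusted p = 3.63e-07). Hbegf, the heparin-binding ligand, had 176, 201 and 175 TPM under flow, against 67.3, 65.1 and 64.7 TPM in static culture (log2 difference 1.47, SE 0.10, adjusted p = 5.68e-08). Both were higher in every flow library. Egfr, the receptor, had 188, 182 and 236 TPM under flow, against 189, 212 and 182 TPM in static culture and did not pass (log2 difference 0.05, SE 0.10, adjusted p = 0.79), and the shedding protease Adam17 did not either (log2 difference -0.04, SE 0.10, adjusted p = 0.82). Erbb3, a sister receptor, fell with 40.1, 38.4 and 39.7 TPM under flow, against 60.4, 55.5 and 51.1 TPM in static culture (log2 difference -0.49, SE 0.08, adjusted p = 0.000324). Errfi1, an inhibitor of the receptor, rose with 143, 125 and 139.8 TPM under flow, against 54.4, 53 and 58.4 TPM in static culture (log2 difference 1.28, SE 0.08, adjusted p = 1.43e-08). Of 13 tested 4 rose and 1 fell, with and without the third flow library, and the median was 0.05, so most members had differences near 0.

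Immediate early transcription factors are switched on within minutes of a stimulus and decline over hours. Of 26 tested 15 rose and 1 fell, with and without the third flow library, with a median of 0.43. Atf3 had 54.7, 44.4 and 57.6 TPM under flow, against 9.42, 10.7 and 11.5 TPM in static culture (log2 difference 2.2, SE 0.13, adjusted p = 1.43e-08). Klf6 had 163, 161 and 176 TPM under flow, against 70.4, 64.6 and 71.6 TPM in static culture (log2 difference 1.26, SE 0.08, adjusted p = 3.6e-08). Ier2 had 23.2, 23.8 and 20.7 TPM under flow, against 6.38, 6.79 and 8.48 TPM in static culture (log2 difference 1.53, SE 0.12, adjusted p = 2.97e-07). Mafk, a small MAF protein that pairs with NRF2, had 34.1, 39.2 and 36.4 TPM under flow, against 15.7, 13.5 and 16.7 TPM in static culture (log2 difference 1.21, SE 0.09, adjusted p = 2.97e-07). Groups did not overlap in any of them. Egr1 and Fosl1, among the largest rises, were more scattered: Egr1 had 16.5, 12.5 and 40.9 TPM under flow, against 2.62, 3.42 and 4.53 TPM in static culture (log2 difference 2.27, SE 0.33, adjusted p = 0.000164), or 1.78 without the third flow library. Fosl1 had 18.1, 14.3 and 24.7 TPM under flow, against 3.76, 2.58 and 3.95 TPM in static culture (log2 difference 2.16, SE 0.18, adjusted p = 8.59e-07). Fosb was not tested without the third flow library, since it then fell under the filter. The 1 that fell was Klf9 (log2 difference -0.50, SE 0.10, adjusted p = 0.00161), and with only the 6 libraries fitted 8 of the 16 passed.

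Prostaglandin E2 is made in the collecting duct from arachidonic acid by cyclooxygenase and acts on EP receptors to limit salt and water uptake. Ptgs2, the inducible cyclooxygenase, had 66.9, 74 and 59 TPM under flow, against 11.2, 11.1 and 16.3 TPM in static culture (log2 difference 2.3, SE 0.19, adjusted p = 5.55e-07). Ptgs1, the constitutive one, had 1.93, 1.94 and 0.904 TPM under flow, against 2.7, 2.83 and 2.29 TPM in static culture and did not pass (log2 difference -0.50, SE 0.21, adjusted p = 0.112). Ptger4, the EP4 receptor, had 63.3, 56.3 and 71.2 TPM under flow, against 16.3, 16.7 and 13.7 TPM in static culture (log2 difference 1.96, SE 0.10, adjusted p = 3.37e-09). Abcc4, which exports prostaglandins, had 192, 176 and 291 TPM under flow, against 80.1, 91.8 and 73 TPM in static culture (log2 difference 1.39, SE 0.17, adjusted p = 3.95e-05). In each of the 3 that rose the groups were far apart. Ptges3, a prostaglandin E synthase and HSP90 co-chaperone, also rose (log2 difference 0.36, SE 0.06, adjusted p = 0.000929). Together 4 of 9 tested rose and 5 did not pass, with and without the third flow library.

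Secreted signals and proteases that cut the matrix rose in part. Among 17 chemokine, cytokine and NF-kB feedback genes 8 rose and 1 fell, with 8 rising and 9 not passing without the third flow library. Cxcl1, a neutrophil attractant, had 30.7, 37.2 and 22 TPM under flow, against 7.33, 6.71 and 9.01 TPM in static culture (log2 difference 1.81, SE 0.18, adjusted p = 4.99e-06). Lif, an IL-6 family cytokine, had 16, 15.5 and 17.2 TPM under flow, against 4.36, 5.93 and 7.51 TPM in static culture (log2 difference 1.34, SE 0.15, adjusted p = 1.96e-05). Csf1 had 51.6, 49.9 and 62.3 TPM under flow, against 33.5, 34.9 and 31.1 TPM in static culture (log2 difference 0.70, SE 0.12, adjusted p = 0.000766). All 3 were higher in every flow library. Nfkbia, the inhibitor that holds NF-kB in the cytoplasm, fell with 30.2, 26.2 and 22.1 TPM under flow, against 43, 36.9 and 34.6 TPM in static culture (log2 difference -0.53, SE 0.15, adjusted p = 0.0178) but the call was lost without static 1 or flow 3 (adjusted p 0.0687 to 0.0785). In the plasminogen system 4 of 8 tested rose (5 without the third flow library). Plaur, the urokinase receptor, had 161, 152 and 134 TPM under flow, against 40.04, 36.6 and 33.6 TPM in static culture (log2 difference 1.99, SE 0.14, adjusted p = 6.8e-08). Plat, tissue plasminogen activator, had 514, 525 and 415 TPM under flow, against 250.2, 237 and 218 TPM in static culture (log2 difference 1.03, SE 0.10, adjusted p = 5.35e-06). Flow libraries were above static ones in both genes. Plau, urokinase, had 143, 158 and 126 TPM under flow, against 111, 107 and 109.9 TPM in static culture (log2 difference 0.37, SE 0.10, adjusted p = 0.0204), and the call was lost without static 2 or flow 2 (adjusted p 0.0738 to 0.0778).

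YAP and TAZ are transcriptional cofactors that respond to cell tension and shape. Of 21 targets and partners 9 rose and 1 fell (7 and 2 without the third flow library), with a median of 0.27. Ctgf (Ccn2), a matrix signalling protein and classic YAP target, had 713, 579 and 638 TPM under flow, against 255, 254 and 245 TPM in static culture (log2 difference 1.35, SE 0.10, adjusted p = 2.01e-07). Cyr61 (Ccn1) had 968, 827 and 752 TPM under flow, against 540.2, 507 and 539 TPM in static culture (log2 difference 0.68, SE 0.10, adjusted p = 0.000163). Gadd45a had 84.5, 82.2 and 61.2 TPM under flow, against 32.4, 37.2 and 47.2 TPM in static culture (log2 difference 0.95, SE 0.13, adjusted p = 0.000124). All 3 were higher in every flow library. Ankrd1, another classic target, had 636, 705 and 533 TPM under flow, against 567, 532 and 429 TPM in static culture and did not pass (log2 difference 0.29, SE 0.11, adjusted p = 0.0762). It did pass in 7 alternatives (adjusted p 0.0154 to 0.047), which were without the third flow library, without static 1, deposited TPM, quantile normalisation, library weights, the replicate block and removal of a length and GC trend. A fit of the 6 libraries alone kept 3 of the 10. Among 23 actin and SRF genes 6 rose (7 higher and 1 lower without the third flow library), led by Fhl2, a LIM-domain cofactor, with 367, 372 and 299.96 TPM under flow, against 196, 197 and 205 TPM in static culture (log2 difference 0.79, SE 0.08, adjusted p = 4.3e-06), Cnn3 (log2 difference 0.39, SE 0.06, adjusted p = 0.000393), Zyx, the focal adhesion protein zyxin (log2 difference 0.82, SE 0.16, adjusted p = 0.00178), and Pdlim7 (log2 difference 0.70, SE 0.14, adjusted p = 0.00183). Actb did not pass (log2 difference 0.17, SE 0.08, adjusted p = 0.146), except with library weights (adjusted p = 0.0275).

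Genes of the hypoxia response fell in 12 of the 17 tested (11 without the third flow library), and 5 did not pass, with a median of -0.49. HIF1 is held down by oxygen through the EGLN prolyl hydroxylases, and its targets outside glycolysis include mitophagy factors and collagen hydroxylases. Ankrd37 (chr8:45996902-46005707 in the GENCODE annotation), a HIF target of little known function, had 6.75, 6.69 and 7.03 TPM under flow, against 74.5, 65.7 and 76.1 TPM in static culture. Flow libraries were tightly grouped and far below static ones (log2 difference -3.22, SE 0.10, adjusted p = 9.51e-12), with -3.24 without the third flow library. The 250 bases before its RefSeq start on GRCm38.p6 (chr8:45999851-46000100, minus strand) hold ACGTG, the core of the hypoxia response element, in capitals 241 and 6 bases before the start.
Ankrd37: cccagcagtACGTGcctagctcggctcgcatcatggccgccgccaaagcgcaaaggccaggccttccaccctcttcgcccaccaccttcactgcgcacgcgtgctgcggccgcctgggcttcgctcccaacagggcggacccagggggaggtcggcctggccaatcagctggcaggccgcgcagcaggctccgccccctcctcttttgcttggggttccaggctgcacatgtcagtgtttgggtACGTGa
ACGTG was found on either strand in the 300-base window of 12 of 14 tested members with a window and of 10 of the 11 that fell, but these 5 letters are common, with 21.8% of all genes. Ak4, a mitochondrial adenylate kinase, had 3.06, 2.91 and 2.17 TPM under flow, against 8.56, 9.43 and 9.36 TPM in static culture (log2 difference -1.45, SE 0.15, adjusted p = 5.52e-06). Mxi1, a MYC antagonist, had 17, 15.1 and 14 TPM under flow, against 48.5, 45.3 and 30.8 TPM in static culture (log2 difference -1.36, SE 0.14, adjusted p = 5.35e-06). Bnip3, a mitophagy receptor, had 42.6, 49.97 and 34.3 TPM under flow, against 81.9, 84.2 and 87.6 TPM in static culture (log2 difference -1.0, SE 0.11, adjusted p = 1.01e-05). No group overlapped. Egln3, the most inducible of the prolyl hydroxylases, was at the low end with 0.249, 0.302 and 0.242 TPM under flow, against 1.15, 1.16 and 1.12 TPM in static culture (log2 difference -0.76, SE 0.11, adjusted p = 0.00019). Vegfa, the secreted angiogenic factor, had 38.7, 32.8 and 38.5 TPM under flow, against 53.9, 53.7 and 60.2 TPM in static culture (log2 difference -0.60, SE 0.10, adjusted p = 0.000472). Hif1a itself had 144, 149 and 137 TPM under flow, against 175, 159 and 173 TPM in static culture (log2 difference -0.23, SE 0.06, adjusted p = 0.00744). In the fit of the 6 libraries alone 7 of the 12 passed.

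Glycolysis fell in fewer members, with 8 of 24 lower (5 without the third flow library), 16 not passing and a median of -0.15. Eno2, a second enolase isozyme and HIF target, had 1.21, 1.78 and 2.6 TPM under flow, against 15.2, 14.5 and 18.6 TPM in static culture (log2 difference -2.6, SE 0.17, adjusted p = 3.61e-08), far below static in every flow library. Hk2, the inducible hexokinase, had 34.5, 30.1 and 40.9 TPM under flow, against 65.4, 59.4 and 66.5 TPM in static culture (log2 difference -0.85, SE 0.11, adjusted p = 6.54e-05). Slc16a3, a lactate exporter, had 42, 45.6 and 46.5 TPM under flow, against 59.5, 62.8 and 72.7 TPM in static culture (log2 difference -0.53, SE 0.08, adjusted p = 0.000241). Pdk1, a kinase that inhibits pyruvate dehydrogenase, had 119, 104 and 100.1 TPM under flow, against 144, 144 and 143 TPM in static culture (log2 difference -0.42, SE 0.08, adjusted p = 0.00221). Groups did not overlap in any of the 4. The glucose carrier Slc2a1 (log2 difference -0.01, SE 0.07, adjusted p = 0.921) and the abundant enzyme Ldha (log2 difference 0.06, SE 0.07, adjusted p = 0.615) did not pass. The calls of Slc2a3, Pfkl and Pgk1 were lost without the third flow library, and 2 of the 8 passed with only the 6 libraries fitted.

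FOXO factors are shut out of the nucleus by growth factor signalling through AKT, and their targets slow the cell cycle. Of 19 tested 10 fell and 9 did not pass. Without the third flow library 10 fell as well, and the median was -0.56 against -0.33 with it. Ccng2, an atypical cyclin that arrests cells, had 75, 73.3 and 78.1 TPM under flow, against 296, 257 and 298 TPM in static culture (log2 difference -1.89, SE 0.09, adjusted p = 1.13e-09). Sesn1, a sestrin that restrains mTORC1, had 10.3, 9.64 and 8.75 TPM under flow, against 23.4, 23.3 and 23.1 TPM in static culture (log2 difference -1.2, SE 0.09, adjusted p = 2.31e-07). Cdkn1b, the CDK inhibitor p27, had 24.6, 25.9 and 21.8 TPM under flow, against 44.9, 40.7 and 43.5 TPM in static culture (log2 difference -0.81, SE 0.10, adjusted p = 3.73e-05). Flow libraries were below static ones throughout. Txnip, an inhibitor of thioredoxin and glucose uptake, had 102, 93.1 and 82 TPM under flow, against 151, 147 and 147 TPM in static culture (log2 difference -0.68, SE 0.09, adjusted p = 5.83e-05). Foxo3 fell with 13.3, 11.4 and 16.1 TPM under flow, against 24.7, 26.8 and 32.6 TPM in static culture (log2 difference -0.99, SE 0.13, adjusted p = 7.14e-05). Foxo1 had 3.76, 3.65 and 9.72 TPM under flow, against 2.52, 3.36 and 2.46 TPM in static culture and did not pass (log2 difference 0.72, SE 0.26, adjusted p = 0.0609), except without flow 1 (adjusted p = 0.033), without flow 2 (adjusted p = 0.0251), under quantile normalisation (adjusted p = 0.0388) or with a length and GC trend removed (adjusted p = 0.0426). Insr, the insulin receptor, fell with overlapping groups (log2 difference -0.38, SE 0.13, adjusted p = 0.0447), and the call was lost without static 1, static 2, static 3, flow 1 or flow 2 (adjusted p 0.0683 to 0.169). In the fit of only the 6 libraries 6 of the 10 passed.

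Mitotic genes fell in 15 of the 28 tested (12 without the third flow library), by small amounts, and 13 did not pass. In bulk RNA, fewer cells in mitosis and less RNA per such cell cannot be told apart. The median of the list was -0.30, and 3 of the 15 passed with the 6 libraries fitted alone. Bub1b, a spindle checkpoint kinase, had 102, 115 and 90.6 TPM under flow, against 186, 162 and 165 TPM in static culture (log2 difference -0.73, SE 0.08, adjusted p = 1.84e-05). Nusap1, a spindle protein, had 58.6, 60.4 and 49.6 TPM under flow, against 96.1, 90.5 and 96.2 TPM in static culture (log2 difference -0.74, SE 0.09, adjusted p = 3.9e-05). Top2a, topoisomerase II, had 626, 702 and 538 TPM under flow, against 898, 873 and 958 TPM in static culture (log2 difference -0.56, SE 0.09, adjusted p = 0.000366). Kif11, a spindle motor, had 266, 262 and 215 TPM under flow, against 349, 329 and 366 TPM in static culture (log2 difference -0.49, SE 0.08, adjusted p = 0.000399). The groups did not overlap in these 4. Cdc20, Cdc25c, Kif20a and Prc1 lost their calls without the third flow library. Genes of DNA replication were near the background, with 3 higher and 2 lower of 28 (2 and 2 without the third flow library) and a median of 0.01. Orc1, of the origin recognition complex, rose with 17.5, 17.7 and 16.4 TPM under flow, against 11.5, 11.8 and 10.2 TPM in static culture (log2 difference 0.58, SE 0.13, adjusted p = 0.00463). Pold1, a DNA polymerase subunit, fell with 62.7, 73.3 and 67.7 TPM under flow, against 91.1, 81.7 and 86 TPM in static culture (log2 difference -0.34, SE 0.08, adjusted p = 0.00504). Cdc6, a loader of the replicative helicase, also rose (log2 difference 0.25, SE 0.07, adjusted p = 0.018), but the call was lost without static 1 or static 2 (adjusted p 0.0592 to 0.0867), and Chaf1a, a histone chaperone subunit, fell (log2 difference -0.29, SE 0.07, adjusted p = 0.0125), but the call was lost without static 3 (adjusted p = 0.0594).

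Genes that govern entry into S phase went both ways, with 4 of 15 higher and 3 lower (5 and 3 without the third flow library). Ccne1, cyclin E1, had 40.8, 36.3 and 36.6 TPM under flow, against 20.3, 24.8 and 20.3 TPM in static culture (log2 difference 0.78, SE 0.11, adjusted p = 0.000209). Among inhibitors, Cdkn2d (p19) had 5.58, 5.93 and 4.61 TPM under flow, against 17.1, 14.9 and 16.8 TPM in static culture (log2 difference -1.44, SE 0.13, adjusted p = 1.95e-06). Cdkn2c (p18) had 36.3, 39 and 32.1 TPM under flow, against 57.4, 54.8 and 54.8 TPM in static culture (log2 difference -0.63, SE 0.09, adjusted p = 0.000246), while Cdkn2b (p15) rose (log2 difference 0.35, SE 0.08, adjusted p = 0.00508). Cdkn1a (p21) had 5.68, 5.27 and 14 TPM under flow, against 5.09, 5.73 and 5.15 TPM in static culture without passing (log2 difference 0.44, SE 0.23, adjusted p = 0.217). Rbl1, a pocket protein, fell (log2 difference -0.44, SE 0.09, adjusted p = 0.00185). Targets of p53 rose in 10 of 20 members and fell in 2 (9 and 1 without the third flow library), with a median of 0.44. Gdf15, a secreted stress factor, had 378, 359 and 306 TPM under flow, against 78.6, 81.9 and 78.9 TPM in static culture (log2 difference 2.1, SE 0.09, adjusted p = 2.92e-10). Sesn2 had 26.3, 22.7 and 35.5 TPM under flow, against 7.65, 10.6 and 6.47 TPM in static culture (log2 difference 1.66, SE 0.17, adjusted p = 4.59e-06). Plk2 had 619.5, 713 and 546 TPM under flow, against 371, 358 and 354 TPM in static culture (log2 difference 0.79, SE 0.09, adjusted p = 1.18e-05). Plk3 had 24.8, 23.2 and 32.5 TPM under flow, against 3.5, 6.99 and 4.98 TPM in static culture (log2 difference 2.2, SE 0.29, adjusted p = 7.05e-05). Sesn2 is also on the ATF4 list, and Sesn1, which fell, on the FOXO list. Mdm2, the inhibitor of p53, had 67.4, 65.1 and 65.1 TPM under flow, against 44.3, 49.5 and 45.6 TPM in static culture (log2 difference 0.50, SE 0.09, adjusted p = 0.000932). In each of these the groups were apart. Of the 12, 8 passed when the 6 libraries were fitted alone.

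Cholesterol and fatty acid synthesis is switched on by SREBP2 and SREBP1 when sterol runs low. Of 30 genes 13 fell and 1 rose (15 and 1 without the third flow library), with a median of -0.25. Hmgcs1, which makes HMG-CoA, had 100.4, 109 and 102 TPM under flow, against 206, 198 and 225 TPM in static culture (log2 difference -1.01, SE 0.07, adjusted p = 1.27e-07). Mvd, of the mevalonate pathway, had 37.6, 35.9 and 30.3 TPM under flow, against 63.2, 66.2 and 64.2 TPM in static culture (log2 difference -0.89, SE 0.09, adjusted p = 4.17e-06). Fdft1, squalene synthase, had 68.7, 70.4 and 56.8 TPM under flow, against 98.6, 98.7 and 108 TPM in static culture (log2 difference -0.64, SE 0.08, adjusted p = 7.94e-05). Lpin1, a phosphatidate phosphatase and lipid regulator, had 8.33, 7.22 and 8.36 TPM under flow, against 27.3, 30.8 and 27.1 TPM in static culture (log2 difference -1.71, SE 0.14, adjusted p = 6.26e-07). No group overlapped in these. Srebf2, which encodes SREBP2, did not pass (log2 difference 0.15, SE 0.14, adjusted p = 0.497). Genes of fatty acid use went up where they passed: 5 of 13 rose (4 of 12 without the third flow library). Angptl4, a secreted inhibitor of lipoprotein lipase, had 33.6, 32.5 and 26 TPM under flow, against 4.84, 3.31 and 3.69 TPM in static culture (log2 difference 2.68, SE 0.13, adjusted p = 1.43e-09). Cpt1a, which admits fatty acids to the mitochondrion, had 42.3, 41.3 and 49.4 TPM under flow, against 15.5, 20.1 and 15.5 TPM in static culture (log2 difference 1.33, SE 0.15, adjusted p = 2.16e-05). Plin2, a lipid droplet coat protein, had 289.99, 289 and 219 TPM under flow, against 133, 135 and 153 TPM in static culture (log2 difference 0.91, SE 0.10, adjusted p = 1.29e-05). Pdk4 had 2.6, 4.72 and 3.96 TPM under flow, against 0.855, 0.45 and 0.283 TPM in static culture (log2 difference 1.63, SE 0.17, adjusted p = 7.87e-06), and was under the filter without the third flow library. The receptors Pparg and Cd36 were listed at 0 in all 6 libraries, and Ppard had 4.64, 5.51 and 12.5 TPM under flow, against 5.59, 2.84 and 2.36 TPM in static culture and did not pass (log2 difference 0.85, SE 0.31, adjusted p = 0.0648), except without static 1 (adjusted p = 0.0229), without flow 1 (adjusted p = 0.0304) or under quantile normalisation (adjusted p = 0.0481).

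Genes of the ciliary transport machinery mostly did not pass. Of 31 genes of IFT-A, dynein-2 and IFT-B, 4 fell and 1 rose (2 and 1 without the third flow library), near the background, with a median of -0.14. None of the 5 passed with only the 6 libraries fitted. At an unadjusted p under 0.05 in the fit of all libraries 4 were higher and 6 lower. Ttc30b, an IFT-B subunit, had 2.07, 2.06 and 1.8 TPM under flow, against 3.72, 3.72 and 4.46 TPM in static culture (log2 difference -0.74, SE 0.11, adjusted p = 0.000275). Ift22 rose with 32.5, 38.1 and 34 TPM under flow, against 24.6, 26.4 and 27.2 TPM in static culture (log2 difference 0.40, SE 0.09, adjusted p = 0.00521). Wdr60, a dynein-2 intermediate chain, had 5.06, 6.21 and 7.02 TPM under flow, against 9.06, 9.76 and 9.77 TPM in static culture (log2 difference -0.58, SE 0.16, adjusted p = 0.0189), but the call was lost without static 3 or flow 1 (adjusted p 0.0516 to 0.0756). Ttc21b, an IFT-A subunit beside Ift140, had 27.8, 28.2 and 19.7 TPM under flow, against 41.2, 31.9 and 32.8 TPM in static culture (log2 difference -0.47, SE 0.14, adjusted p = 0.0222), but the call was lost without static 1 or flow 3 (adjusted p 0.0874 to 0.107). The other IFT-A genes Ift122 (-0.18), Wdr19 (-0.31), Wdr35 (-0.10) and Ift43 (0.18) did not pass, except Wdr19 without static 3 (adjusted p = 0.00644) or with library weights (adjusted p = 0.0193).

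Of 35 genes of the BBSome, transition zone and cilium membrane 8 fell and 27 did not pass (6 fell without the third flow library), with a median of -0.26, and all 8 calls were lost with only the 6 libraries fitted. Bbs10, a chaperonin that assembles the BBSome, had 2.56, 2.64 and 1.57 TPM under flow, against 4.62, 4.49 and 5.25 TPM in static culture (log2 difference -0.85, SE 0.16, adjusted p = 0.00152). Ahi1 had 4.46, 2.63 and 3.77 TPM under flow, against 7.95, 6.67 and 6.81 TPM in static culture (log2 difference -0.83, SE 0.16, adjusted p = 0.00206). Cc2d2a, of the transition zone, had 7.49, 11.3 and 8.44 TPM under flow, against 14.8, 18.2 and 16.7 TPM in static culture (log2 difference -0.82, SE 0.16, adjusted p = 0.00194), with no overlap in these 3. Tctn1, another transition zone protein, had 11.6, 12.2 and 17.8 TPM under flow, against 23, 16.7 and 22.8 TPM in static culture (log2 difference -0.56, SE 0.16, adjusted p = 0.0227), with overlap, and the call was lost without static 1, static 3, flow 1 or flow 2 (adjusted p 0.07 to 0.0884). Of the polycystins of the cilium, Pkd1 had 43.4, 39.4 and 69.3 TPM under flow, against 51.4, 51.4 and 43.3 TPM in static culture and did not pass (adjusted p = 0.964). Pkd2 had 88.5, 85.7 and 77.6 TPM under flow, against 85.3, 88.7 and 93.5 TPM in static culture and did not pass either (adjusted p = 0.484). In the Hedgehog pathway, which runs through the cilium, 5 of 8 tested fell (4 without the third flow library), the ligand Shh and the target Gli1 being under the filter. Gas1, a co-receptor, had 2.41, 2.07 and 2.87 TPM under flow, against 4.93, 4.68 and 4.07 TPM in static culture (log2 difference -0.69, SE 0.14, adjusted p = 0.00224). Cdon, another, had 18.6, 17 and 25.4 TPM under flow, against 27.6, 29.2 and 32.5 TPM in static culture (log2 difference -0.54, SE 0.13, adjusted p = 0.00854), both lower in every flow library. Ptch1, the receptor and itself a target, had 4.86, 4.91 and 8.35 TPM under flow, against 15.2, 10.4 and 8.71 TPM in static culture (log2 difference -0.82, SE 0.23, adjusted p = 0.0206), and the call was lost without static 1, flow 1 or flow 2 (adjusted p 0.0654 to 0.103). Kif7, a ciliary kinesin of the pathway, fell (log2 difference -0.67, SE 0.17, adjusted p = 0.01), but the call was lost without static 1 (adjusted p = 0.056). Smo, the transducer, fell (log2 difference -0.24, SE 0.07, adjusted p = 0.0271), but the call was lost without static 3 or flow 3 (adjusted p 0.0795 to 0.116). None of the 5 passed with only the 6 libraries fitted, while at an unadjusted p under 0.05 in the fit of all libraries 5 were lower and 1 higher.

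Channels and purinergic genes proposed as flow sensors stayed near the background, with 2 of 13 higher and 1 lower. None of these 3 passed with only the 6 libraries fitted. Piezo1, a stretch-gated channel, had 130.4, 119.98 and 208 TPM under flow, against 99.9, 102 and 104 TPM in static culture (log2 difference 0.54, SE 0.15, adjusted p = 0.0174), with the third flow library highest. It was 0.29 without that library, the call was lost without static 1 (adjusted p = 0.0523), and it was lost with deposited TPM (adjusted p = 0.073) or quantile normalisation (adjusted p = 0.0605). Panx1, an ATP release channel, had 8.51, 6.94 and 6.09 TPM under flow, against 5.17, 4.1 and 4.63 TPM in static culture (log2 difference 0.53, SE 0.14, adjusted p = 0.0126), but the call was lost without static 2 or flow 1 (adjusted p 0.0563 to 0.064) and with a length and GC trend removed (adjusted p = 0.056). Trpc1, a calcium channel, fell with 6.39, 7.06 and 6.28 TPM under flow, against 11.5, 10.2 and 9.41 TPM in static culture (log2 difference -0.58, SE 0.15, adjusted p = 0.0121), but the call was lost without static 1 (adjusted p = 0.0558). Trpv4 had 44.2, 35.3 and 45.1 TPM under flow, against 49, 52.4 and 46.9 TPM in static culture (adjusted p = 0.162). The ATP receptor P2ry2 had 2.13, 2.8 and 2.35 TPM under flow, against 2.81, 3.56 and 2.73 TPM in static culture (adjusted p = 0.252).

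Salt and steroid genes were mostly under the filter or near 0. Of 12 tested 2 rose and 2 fell (2 and 1 without the third flow library), and 1 of these 4 passed with only the 6 libraries fitted. Sgk1, the kinase that holds the sodium channel ENaC at the membrane, had 70.04, 67.2 and 64.1 TPM under flow, against 11.5, 16.5 and 11.4 TPM in static culture (log2 difference 2.29, SE 0.18, adjusted p = 2.73e-07), while its transcriptional regulators differed: Nr3c1, the glucocorticoid receptor, rose with 55.4, 54 and 75.1 TPM under flow, against 43.5, 42.8 and 39.3 TPM in static culture (log2 difference 0.53, SE 0.13, adjusted p = 0.00975). Nr3c2, the mineralocorticoid receptor, fell with 1.3, 1.13 and 1.27 TPM under flow, against 2.23, 2.26 and 1.8 TPM in static culture (log2 difference -0.47, SE 0.15, adjusted p = 0.0343), but the call was lost without static 1, static 2, flow 1, flow 2 or flow 3 (adjusted p 0.051 to 0.101). Scnn1g, the gamma subunit of ENaC, had 0.0399, 0.749 and 0.0268 TPM under flow, against 1.8, 3.42 and 1.43 TPM in static culture, low in every library and lower under flow (log2 difference -1.34, SE 0.22, adjusted p = 0.000602). Fkbp5 (-0.03) and Tsc22d3 (-0.16), standard readouts of glucocorticoid action, did not pass (adjusted p = 0.925 and 0.464).

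Junction and epithelial genes went both ways. Of 18 tight junction genes 3 rose and 4 fell (4 and 4 without the third flow library), where 10.2% of all genes rose and 9.14% fell. With only the 6 libraries fitted 2 of the 7 passed. Cldn4, a claudin of the collecting duct, had 384, 386 and 305 TPM under flow, against 182, 185 and 208 TPM in static culture (log2 difference 0.89, SE 0.11, adjusted p = 4.39e-05). Pard6b, a polarity protein, had 40.6, 38.3 and 40.4 TPM under flow, against 25.5, 28.5 and 28.1 TPM in static culture (log2 difference 0.52, SE 0.10, adjusted p = 0.00119). Cldn2, a leaky claudin, had 0.997, 0.791 and 0.653 TPM under flow, against 1.98, 1.96 and 2.91 TPM in static culture (log2 difference -0.85, SE 0.15, adjusted p = 0.00116). Tjp3 had 8.86, 8.53 and 8.26 TPM under flow, against 13.2, 13.5 and 19.99 TPM in static culture (log2 difference -0.77, SE 0.14, adjusted p = 0.0015). No group overlapped in these 4. Of 19 epithelial and mesenchymal genes 4 rose and 3 fell (3 and 3 without the third flow library), and 1 of these 7 passed with only the 6 libraries fitted. Ehf, an epithelial ETS factor, had 29.2, 25.5 and 27.9 TPM under flow, against 57.9, 74.6 and 67.7 TPM in static culture (log2 difference -1.24, SE 0.11, adjusted p = 1.29e-06). Grhl1, an epithelial grainyhead factor, had 6.79, 6.59 and 6.68 TPM under flow, against 1.15, 2.35 and 3.74 TPM in static culture (log2 difference 1.24, SE 0.26, adjusted p = 0.00295). The keratins Krt8 and Krt18, which form 1 filament together, had 0.32 (adjusted p = 0.00789) and 0.42 (adjusted p = 0.00209), though for Krt8 the call was lost without static 2 (adjusted p = 0.0556), as it was under quantile normalisation (adjusted p = 0.136). Cdh1, E-cadherin, did not pass (log2 difference 0.49, SE 0.19, adjusted p = 0.0932) except without flow 2 (adjusted p = 0.0163), and the mesenchymal filament Vim did not either (log2 difference 0.18, SE 0.12, adjusted p = 0.324).

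Of 15 TGF-beta and BMP genes 3 rose and 3 fell, with and without the third flow library. Smad6, an inhibitor of BMP signalling, had 5.98, 4.92 and 5.94 TPM under flow, against 13.9, 12.6 and 13.1 TPM in static culture (log2 difference -1.11, SE 0.14, adjusted p = 6.93e-05). Bmp4, a ligand, had 3.27, 2.81 and 3.46 TPM under flow, against 8.25, 7.92 and 7.18 TPM in static culture (log2 difference -1.07, SE 0.11, adjusted p = 9.05e-06). Tgif1, a co-repressor, had 63.6, 65.4 and 77 TPM under flow, against 37.3, 37.5 and 38.8 TPM in static culture (log2 difference 0.84, SE 0.10, adjusted p = 2.34e-05), each without overlap. Smad3 also rose (log2 difference 0.45, SE 0.09, adjusted p = 0.00273). Of 15 Notch genes 2 rose and 1 fell (1 and 2 of 14 without the third flow library): Jag1, a ligand, had 201, 188 and 252 TPM under flow, against 145, 143 and 140.5 TPM in static culture (log2 difference 0.57, SE 0.13, adjusted p = 0.00512). Dll4, another, was low with 1.93, 1.51 and 1.84 TPM under flow, against 0.234, 0.489 and 0.399 TPM in static culture (log2 difference 1.01, SE 0.20, adjusted p = 0.00262). Hes1, a target, had 43.3, 42.4 and 37.6 TPM under flow, against 52.8, 58.9 and 51.5 TPM in static culture (log2 difference -0.40, SE 0.08, adjusted p = 0.0019). A ligand and a target therefore went opposite ways. Interferon-stimulated genes fell in 4 of 18, where 9.14% of all genes fell, and 1 of the 4 passed with only the 6 libraries fitted. Ifit2 had 19.3, 21.8 and 17.6 TPM under flow, against 31.7, 28.6 and 33.6 TPM in static culture (log2 difference -0.65, SE 0.10, adjusted p = 0.000178). Tap1, a peptide transporter, had 8.76, 5.52 and 4.47 TPM under flow, against 15.5, 12.8 and 12.4 TPM in static culture (log2 difference -1.04, SE 0.20, adjusted p = 0.00202). Ifih1 and Irf9 were the others (-0.55 and -0.59), but for Ifih1 the call was lost without static 3 (adjusted p = 0.0803), and for Irf9 the call was lost without static 1, static 2, static 3 or flow 1 (adjusted p 0.0635 to 0.162). In the circadian clock 5 of 18 rose and 4 fell (3 and 3 without the third flow library): Cry1, a repressor, had 36.9, 40.4 and 32.5 TPM under flow, against 18, 20.9 and 19.6 TPM in static culture (log2 difference 0.87, SE 0.11, adjusted p = 4.99e-05). Csnk1e, a clock kinase, rose (log2 difference 0.43, SE 0.07, adjusted p = 0.000669). Dbp, an output factor, had 2.75, 2.49 and 2.55 TPM under flow, against 5.79, 5.03 and 5.23 TPM in static culture (log2 difference -0.82, SE 0.16, adjusted p = 0.00214). Rora, an activator of Arntl, fell too (log2 difference -0.89, SE 0.21, adjusted p = 0.00688).

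Of 10 retinoid genes 3 fell (1 lower and 1 higher of 9 without the third flow library), where 9.14% of all genes fell. Dhrs3, which turns retinal back into retinol, had 10.4, 10.3 and 7.42 TPM under flow, against 26.2, 26.5 and 32.2 TPM in static culture (log2 difference -1.5, SE 0.17, adjusted p = 1.42e-05), with no overlap. Rdh11 and Rxrb fell with all 6 libraries (-0.36 and -0.35), but for Rdh11 the call was lost without static 1, static 3 or flow 3 (adjusted p 0.0608 to 0.144), and for Rxrb the call was lost without static 1, static 3 or flow 3 (adjusted p 0.0735 to 0.157). Of 17 histone genes 4 fell (3 without the third flow library). H1f0, the linker histone of resting cells, had 56.4, 52.7 and 49.6 TPM under flow, against 173, 174 and 186 TPM in static culture (log2 difference -1.73, SE 0.08, adjusted p = 1.25e-09). Hist1h1c had 207, 216 and 219.6 TPM under flow, against 290.3, 309 and 299 TPM in static culture (log2 difference -0.48, SE 0.07, adjusted p = 0.000118). Hist2h2be had 2.66, 2.98 and 2.14 TPM under flow, against 4.92, 4.7 and 4.56 TPM in static culture (log2 difference -0.68, SE 0.11, adjusted p = 0.000428). Flow libraries were below static ones in all 3. Hist1h1b also fell (log2 difference -0.40, SE 0.12, adjusted p = 0.0305), but the call was lost without static 1, static 2, flow 2 or flow 3 (adjusted p 0.0662 to 0.116).

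Genes of basic machinery were close to 0. Of 38 cytosolic ribosomal protein genes 1 rose, Rpl27 (log2 difference 0.37, SE 0.07, adjusted p = 0.000964), and the median was -0.01. None of 34 nuclear-encoded respiratory chain genes passed by limma, with 1 at an unadjusted p under 0.05 (lower), and the median was -0.07. Of 33 proteasome genes 2 rose (5 without the third flow library), Psmc2 (log2 difference 0.42, SE 0.08, adjusted p = 0.0021) and Psmd11 (log2 difference 0.74, SE 0.25, adjusted p = 0.0464), but for Psmd11 the call was lost without static 1, static 3 or flow 3 (adjusted p 0.115 to 0.192). Of 26 lysosome and autophagy genes 3 fell (3 lower and 1 higher without the third flow library), Mcoln1 (-0.44), Atg9b (-0.38) and Uvrag (-0.38). None of these 3 passed with only the 6 libraries fitted. Among ubiquitin genes Ubb, a tandem repeat, rose (log2 difference 0.49, SE 0.11, adjusted p = 0.00616), while the fusion gene Rps27a (0.02) did not pass. Of 9 long noncoding RNAs 1 rose, Snhg1 (log2 difference 0.40, SE 0.13, adjusted p = 0.0497), but the call was lost without static 1, static 2, static 3, flow 1 or flow 2 (adjusted p 0.0691 to 0.169).

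Some of the largest falls belong to no list. Rasl11a, a small GTPase of the nucleolus, had 6.23, 4.96 and 4.53 TPM under flow, against 25.3, 27.2 and 24 TPM in static culture (log2 difference -2.09, SE 0.17, adjusted p = 5.55e-07). Smtnl2, a smoothelin-like protein, had 16, 11.8 and 19 TPM under flow, against 59.1, 64.6 and 71.9 TPM in static culture (log2 difference -2.02, SE 0.17, adjusted p = 6.5e-07). Mecom, a zinc finger transcription factor, had 3.27, 5.69 and 5.74 TPM under flow, against 17.7, 11.4 and 16.1 TPM in static culture (log2 difference -1.46, SE 0.20, adjusted p = 9.45e-05). Efna1, a membrane-bound ligand of Epha2, had 17.6, 17.1 and 13.3 TPM under flow, against 45.2, 41.3 and 49.7 TPM in static culture (log2 difference -1.45, SE 0.10, adjusted p = 9.93e-08). Narf, which binds prelamin A, had 17.4, 15.7 and 7.49 TPM under flow, against 42.2, 43.4 and 40.4 TPM in static culture (log2 difference -1.64, SE 0.20, adjusted p = 4.12e-05), its flow 3 library the lowest, and Tmco6 had 10.9, 8.66 and 9.78 TPM under flow, against 27.2, 27 and 33.5 TPM in static culture (log2 difference -1.49, SE 0.12, adjusted p = 5.91e-07). Flow and static libraries were apart in all 6, which the choice of the largest falls required. Efna1 fell while its receptor gene Epha2 rose.

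The same contrast was fitted in wild-type cells over the same 15291 genes, where 3389 passed (22.2%), 1703 higher (11.1%) and 1686 lower (11%). Both lines shared 1987 calls with the same sign, which are 67.3% of the Ift140 knockout calls and 58.6% of the wild-type calls, and 5 genes passed in both with opposite signs. A call in only 1 line is no test of a difference, so the response of Ift140 knockout cells was tested against that of wild-type cells directly. By this test 38 genes passed (0.249%), 14 with a higher difference in Ift140 knockout cells (0.0916%) and 24 with a lower one (0.157%), against 69 without the third flow library, 16 without static 1 and 25 without static 3. Scaling moved the split, to 4 higher and 14 lower with deposited TPM and 10 higher and 28 lower under quantile normalisation.

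**Figure D4:**
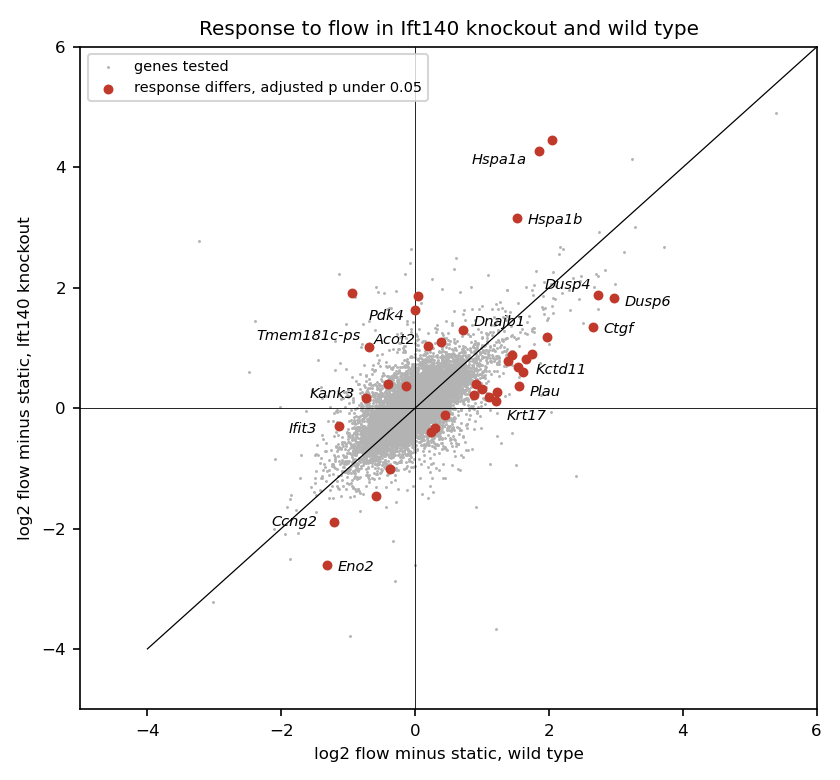
Log2 difference between flow and static in Ift140 knockout cells (y axis) against that in wild-type cells (x axis), for the 15291 genes tested. The 38 genes whose responses differed are in red, and those above the diagonal, such as Hspa1a and Hspa1b, rose more or fell less in Ift140 knockout cells, while Ctgf and Dusp6 below it rose less.

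The inducible HSP70 genes had the smallest adjusted p of the 38. In wild-type cells Hspa1b had 69.9, 84.6 and 87.2 TPM under flow, against 29.2, 26.2 and 26.3 TPM in static culture, a rise of 1.53, so the response in Ift140 knockout cells was larger by 1.64 (SE 0.13, adjusted p = 1.09e-05). Hspa1a had 4.41, 5.11 and 6.33 TPM under flow, against 0.707, 0.677 and 0.824 TPM in static culture in wild-type cells, a rise of 1.84, and its response in Ift140 knockout cells was larger by 2.42 (SE 0.18, adjusted p = 1.09e-05). The static libraries of Hspa1b were also higher in Ift140 knockout than in wild-type cells, and every one of its Ift140 knockout flow libraries was above every wild-type flow library. Dnajb1 was the third heat shock gene, at 89.5, 97.1 and 96.4 TPM under flow, against 57.7, 55.8 and 57.5 TPM in static culture in wild-type cells, with a difference of 0.59 (SE 0.11, adjusted p = 0.0363). Hsp25-ps1, a pseudogene copy of the small chaperone gene Hspb1, so that the split of reads between them is uncertain, had 0.71 (SE 0.12, adjusted p = 0.0213), while Hspb1 itself did not pass (difference in response 0.62, SE 0.14, adjusted p = 0.112). Without the third flow library the differences were 1.62 for Hspa1b and 2.41 for Hspa1a. For Dnajb1 the call was lost without static 1, static 2 or flow 1 (adjusted p 0.0991 to 0.122), and for Hsp25-ps1 the call was lost without static 1, static 3 or flow 1 (adjusted p 0.0633 to 0.0745). Scaling ended both calls, with deposited TPM (adjusted p = 0.402 and 0.184) and under quantile normalisation (adjusted p = 0.14 and 0.105). Of the 24 heat shock genes tested, 3 had a higher response in Ift140 knockout cells, Hspa1a, Hspa1b and Dnajb1, and none a lower one. Over all genes tested 0.0916% had a higher response and 0.157% a lower one.

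Higher responses were not limited to chaperones. Acot2, a mitochondrial acyl-CoA thioesterase, rose in Ift140 knockout cells, with 25.6, 26.9 and 25.8 TPM under flow, against 12.2, 11.4 and 13.2 TPM in static culture. It did not pass in wild-type cells, with 10.6, 13 and 14 TPM under flow, against 10.8, 10.2 and 11.4 TPM in static culture (difference in response 0.83, SE 0.14, adjusted p = 0.0147), but the call was lost without static 1 or static 2 (adjusted p 0.0503 to 0.0597). Kank3, a KN motif and ankyrin protein, had 33.6, 26.7 and 29.8 TPM under flow, against 25.8, 25.2 and 29 TPM in static culture in Ift140 knockout cells without passing. It fell in wild-type cells, with 21.6, 23.7 and 28 TPM under flow, against 40.2, 43.8 and 39 TPM in static culture (difference in response 0.89, SE 0.14, adjusted p = 0.013), but the call was lost with deposited TPM (adjusted p = 0.108). Ifit3, an interferon-stimulated gene, had 66.8, 69.8 and 54.7 TPM under flow, against 79.8, 71.2 and 85 TPM in static culture in Ift140 knockout cells, where it did not pass. It fell in wild-type cells, with 13.4, 16.3 and 17.8 TPM under flow, against 36.8, 35.5 and 35.3 TPM in static culture (difference in response 0.84, SE 0.16, adjusted p = 0.0457), though the call was lost without static 1, static 2, static 3, flow 1 or flow 2 (adjusted p 0.0633 to 0.165). Tmem181c-ps, an unprocessed pseudogene, rose in Ift140 knockout cells, with 11.5, 11.6 and 19.5 TPM under flow, against 7.27, 6.85 and 4.94 TPM in static culture. It fell in wild-type cells, with 8.03, 5.18 and 6.69 TPM under flow, against 10.6, 14.1 and 9.25 TPM in static culture (difference in response 1.71, SE 0.31, adjusted p = 0.0295), and the call was lost without static 1, static 2 or static 3 (adjusted p 0.0512 to 0.0879). Pdk4, which limits pyruvate use, had 2.6, 4.72 and 3.96 TPM under flow, against 0.855, 0.45 and 0.283 TPM in static culture in Ift140 knockout cells and was under 0.02 TPM in every wild-type library (difference in response 1.63, SE 0.24, adjusted p = 0.00751). Its call was lost with a pseudocount of 0.1 (adjusted p = 0.218), and without the third flow library it was under the filter and not tested.

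Lower responses in Ift140 knockout cells included Dusp6 and Dusp4 of the ERK list and Ctgf and Cyr61 of the YAP list. Ctgf, which rose by 1.35 in Ift140 knockout cells, rose by 2.66 in wild-type cells, with 534, 498 and 505 TPM under flow, against 69, 79.9 and 94.4 TPM in static culture (difference in response -1.31, SE 0.14, adjusted p = 0.000612). Both the flow libraries and the static libraries of Ift140 knockout cells were above those of wild-type cells, the static ones by the larger factor. Dusp6 had 223, 191 and 167 TPM under flow, against 24.6, 22.3 and 24.1 TPM in static culture in wild-type cells (difference in response -1.14, SE 0.13, adjusted p = 0.000616), with overlapping flow libraries between the lines and static libraries that were higher in Ift140 knockout cells. Cyr61 had 691, 633 and 611 TPM under flow, against 203, 224 and 241 TPM in static culture in wild-type cells (difference in response -0.85, SE 0.14, adjusted p = 0.0147), but the call was lost without static 1 (adjusted p = 0.0503), and Dusp4 had 40.5, 39 and 37.6 TPM under flow, against 5.3, 4.71 and 4.99 TPM in static culture (difference in response -0.86, SE 0.12, adjusted p = 0.00509). Plau, which rose by 0.37 in Ift140 knockout cells, rose by 1.55 in wild-type cells, with 227, 180.00 and 192 TPM under flow, against 63.3, 61.8 and 77 TPM in static culture (difference in response -1.18, SE 0.15, adjusted p = 0.00188). Kctd11, an adaptor for protein degradation that antagonises Hedgehog signalling, had 10.3, 9.53 and 9.0 TPM under flow, against 5.9, 6.17 and 5.81 TPM in static culture in Ift140 knockout cells and 14.9, 15.3 and 13.7 TPM under flow, against 3.77, 4.1 and 4.43 TPM in static culture in wild-type cells (difference in response -1.01, SE 0.14, adjusted p = 0.00509). Krt17, a stress keratin, had 8.53, 8.55 and 9.02 TPM under flow, against 8.62, 7.56 and 7.8 TPM in static culture in Ift140 knockout cells, where it did not pass. It rose in wild-type cells, with 17.2, 22.1 and 21.2 TPM under flow, against 10.5, 7.23 and 6.98 TPM in static culture (difference in response -1.1, SE 0.19, adjusted p = 0.021), but the call was lost without static 1 or flow 1 (adjusted p 0.055 to 0.0745).

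Among genes that fell, Eno2 fell further in Ift140 knockout cells, where wild-type cells had 4.26, 4.52 and 4.87 TPM under flow, against 12.6, 12.8 and 13.2 TPM in static culture (difference in response -1.28, SE 0.24, adjusted p = 0.0338), but the call was lost without static 1, static 3, flow 1 or flow 2 (adjusted p 0.0665 to 0.105). Efna1 had 20.2, 21.5 and 19.6 TPM under flow, against 28.5, 33.1 and 31.9 TPM in static culture in wild-type cells (difference in response -0.87, SE 0.14, adjusted p = 0.0159). Ccng2 had 75, 94.8 and 102 TPM under flow, against 213, 203 and 214 TPM in static culture (difference in response -0.68, SE 0.13, adjusted p = 0.0343). Hmgcs1 had 130.00, 120.00 and 119 TPM under flow, against 151, 164 and 164 TPM in static culture (difference in response -0.64, SE 0.10, adjusted p = 0.0147), so all 3 fell in both lines and by more in Ift140 knockout cells. For Efna1 the call was lost without static 1 (adjusted p = 0.0512), and for Ccng2 the call was lost without static 1, static 3, flow 1 or flow 2 (adjusted p 0.0755 to 0.115). Ccnd1, cyclin D1, rose by 0.21 in Ift140 knockout cells and by 0.88 in wild-type cells (difference in response -0.66, SE 0.09, adjusted p = 0.00552), though its own call in Ift140 knockout cells was lost in several settings, among them deposited TPM (adjusted p = 0.165). Tfrc did not pass in Ift140 knockout cells and rose by 1.22 in wild-type cells (difference in response -0.94, SE 0.16, adjusted p = 0.0224), but the call was lost without static 1, static 3 or flow 1 (adjusted p 0.0633 to 0.0745). Of the 22 differences in response given here 12 remained with deposited TPM, 11 without static 1, and 5 with only the 12 libraries of these lines fitted, which were Hspa1a, Hspa1b, Ctgf, Plau and Dusp6. These 5 passed under every alternative run. The 10 lost with deposited TPM were Tmem181c-ps, Kank3, Ifit3, Acot2, Dnajb1, Hsp25-ps1, Eno2, Efna1, Ccng2 and Hmgcs1 (adjusted p 0.0555 to 0.402). The number of genes that passed ran from 6 in that fit to 84 with library weights.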

How the data were processed

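Total RNA of 18 libraries was sequenced, and each has 1 table of TPM per gene as deposited by the authors. Per the submitters' processing notes, FastQC 0.11.5, Bowtie2 2.1.0 and RSEM 1.2.31 were used with the builds mm10 and GRCm38.p5. TPM keeps no read depth, so no counting error could be given. A row named total, which repeats the sum of each file, was dropped. Samples were grouped by the genotype and culture condition in the labels.

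Deposited TPM were scaled per library by a trimmed mean of log ratios (30% of ratios and 5% of abundances trimmed) over genes with at least 1 TPM in 3 or more libraries. log2(scaled TPM + 1) was fitted with limma 3.58.1 (R 4.3.3) over all 18 libraries as 6 group means, with moderated variances and a mean-variance trend, and p-values were adjusted by Benjamini-Hochberg over 15291 genes with at least 1 TPM in 3 or more of the 6 Ift140 knockout libraries. The script was tested on simulated data. Coordinates are those of GENCODE vM21 (GRCm38), and promoter sequences are those of RefSeq on GRCm38.p6.

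Members and gene lists were chosen with earlier results of these data known. Genes were named by a rule: the 15 largest rises and falls with a mean of at least 5 TPM, no overlap and a call with and without the third flow library, predicted names skipped. Added to these were up to 4 passing members per list by p, members with a clear role, the 6 largest differences in response each way under the same limit on level and names, and up to 8 genes each way in which the third flow library stood apart. Sole exceptions in a list, genes lost or gained without a library, and the differences in response beyond the 12 largest were named after their values were seen. Some genes of these lists are not reported here.

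Alternatives were the deposited scale, quantile normalisation, pseudocounts of 0.1 and 5, other filters, a fit of only the groups compared, no trend, library weights, a replicate block, and each of the 6 libraries left out. Removal of a length and GC trend was chosen after seeing the data. No exact test was used, since 3 libraries against 3 allow no p under 0.1.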

Additional observations from a re-analysis of the deposited data

Results flagged for a closer look

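The response to flow differed between Ift140 knockout and wild-type cells, by the limma test of the difference itself, in 22 of the genes described above. Values are the flow minus static log2 difference in Ift140 knockout cells minus that in wild-type cells, with its Benjamini-Hochberg adjusted p. Of 24 heat shock genes tested 3 had a higher response in Ift140 knockout cells, where 0.0916% of all genes tested did. With a pseudogene of Hspb1 the chaperone genes were Hspa1a at 2.42 (adjusted p = 1.09e-05), Hspa1b at 1.64 (adjusted p = 1.09e-05), Hsp25-ps1 at 0.71 (adjusted p = 0.0213) and Dnajb1 at 0.59 (adjusted p = 0.0363). The split of reads between Hspa1a and Hspa1b is uncertain. The calls of Dnajb1 and Hsp25-ps1 were lost in several settings, among them deposited TPM (adjusted p = 0.402 and 0.184). Other genes with a higher response were Tmem181c-ps at 1.71 (adjusted p = 0.0296), Pdk4 at 1.63 (adjusted p = 0.00751), Kank3 at 0.89 (adjusted p = 0.013), Ifit3 at 0.84 (adjusted p = 0.0457) and Acot2 at 0.83 (adjusted p = 0.0147).

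A lower response was found in the YAP targets Ctgf at -1.31 (adjusted p = 0.000612) and Cyr61 at -0.85 (adjusted p = 0.0147) and in the ERK phosphatases Dusp6 at -1.14 (adjusted p = 0.000616) and Dusp4 at -0.86 (adjusted p = 0.00509). Eno2 was at -1.28 (adjusted p = 0.0338), Plau at -1.18 (adjusted p = 0.00188), Krt17 at -1.10 (adjusted p = 0.021) and Kctd11 at -1.01 (adjusted p = 0.00509). Tfrc was at -0.94 (adjusted p = 0.0224), Efna1 at -0.87 (adjusted p = 0.0159), Ccng2 at -0.68 (adjusted p = 0.0343), Ccnd1 at -0.66 (adjusted p = 0.00552) and Hmgcs1 at -0.64 (adjusted p = 0.0147). In several of these, among them Ctgf, Cyr61, Dusp6 and Hspa1b, the static libraries of the lines also differed in level, and the part this had in the differences was not tested.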

How the results depend on the processing

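The number of genes that passed between flow and static was within 1.5 times of 2951 under every alternative except the fit of only the 6 libraries, which gave 684 (390 higher and 294 lower), 682 of them among the 2951. Leaving out each library in turn gave 2141 to 3008 genes (1135 to 1610 higher and 1006 to 1398 lower). The share of passing genes that were higher was 44.8% with deposited TPM and 45.2% under quantile normalisation. The difference in response, with 38 genes (14 higher and 24 lower), moved more. It had 18 (4 and 14) with deposited TPM, 6 (3 and 3) with only the groups compared, 24 (7 higher) with no trend, 84 (37 and 47) with library weights, and 22 higher with every gene above 0 tested. Leaving out a library gave 16 to 69 (5 to 26 higher and 11 to 43 lower), the lowest without static 1 and the highest without flow 3. The smaller fits hold fewer libraries, and the cause of these moves was not tested.

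Deviations of same-numbered libraries correlated weakly (r = 0.11, -0.06 and 0.11), and the replicate number was not taken as a pairing. Flow 1 correlated best with static 1 and flow 3 with static 3. Flow 3 and static 3 were alike in scaling factor (1.117 and 1.129) and in small nuclear RNA (1.32% and 1.54% of TPM). They were not alike in the trend with transcript length, from -0.134 to 0.189 in flow 3 and from -0.022 to 0.009 in static 3. An effect shared by these libraries was not tested. A fit with the replicate block gave 2421 genes (1286 higher and 1135 lower) between flow and static and 7 (3 and 4) for the difference in response, and flow 2 correlated best with static 1 (0.15).

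Of 181 named calls between flow and static 75 were lost with only the 6 libraries, 14 of 177 without flow 3, 24 of 178 without static 1, and at most 17 under each other alternative. Of the 22 differences in response 17 were lost with only the 12 libraries, 16 with the replicate block, 11 without static 1 and 10 with deposited TPM. No sign turned among them. The 13 calls between flow and static lost with deposited TPM were Cdc6, Chaf1a, Nr3c2, Piezo1, Psmd11, Cubn, Ccnd1, Dusp8, Hspa4l, Insr, Smo, Spred2 and Vldlr. Read depth is unknown, so a gene near 1 TPM cannot be given a counting error.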
